A study of Homo sapiens with 3 samples.

Results

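Kelly is an established human neuroblastoma cell line with amplified MYCN and an activating mutation of the receptor tyrosine kinase ALK. Fully resistant Kelly cells, grown in 1 µM of the ALK inhibitor TAE684, were compared with sensitive Kelly cells, grown in the vehicle DMSO. Both cultures were kept in RPMI medium with fetal bovine serum and antibiotics, and were profiled at about the same confluence by droplet single-cell RNA sequencing of 3' ends. Each side was 1 library of 1 culture, and the labels do not say whether the resistant culture was a clone or a pool. A cell was a barcode with at least 5000 UMIs (counts of distinct RNA molecules), at least 500 genes and at most 20% of UMIs from mitochondrially encoded genes. This gave 6331 fully resistant and 5415 sensitive cells, 11746 of the 18034 cells in the series. The third library, from intermediate resistant cells grown in 500 nM TAE684, held the other 6288 cells and is given only for side-by-side values.

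ALK sits at the cell surface and passes growth signals through adaptor proteins to the RAS-ERK and PI3K pathways, and TAE684 blocks its kinase domain. Neuroblastoma arises from the sympathoadrenal lineage, whose precursor cells make catecholamines, granins and neuropeptides under transcription factors such as HAND2 and the GATA factors. Proneural factors such as the NEUROD proteins drive neighbouring steps of neuronal differentiation, and protein kinase A, switched on by cAMP, is a main signal in the same lineage.

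The libraries were closely matched in depth, with a median of 16014 UMIs and 3633 genes per fully resistant cell and 16008 UMIs and 3625 genes per sensitive cell. Ribosomal protein genes took 33.6% of the UMIs in fully resistant and 36.6% in sensitive cells, and mitochondrially encoded genes took 6.57% and 5.57%. Both libraries carried the 10 sympathoadrenal markers examined, at a summed level of 2072 CPM (UMIs per 1000000 UMIs) in fully resistant and 2423 CPM in sensitive cells. Summed markers of fibroblasts stood at 17.6 and 19.8 CPM, of leukocytes at 2.03 and 4.96 CPM, of epithelium at 1.23 and 7.73 CPM and of erythroid cells at 0.0283 and 0.0210 CPM. Cell barcodes found in both libraries numbered 62, beside 46.5 that chance gives with this many barcodes. With 1 library per side no test was possible. A gene is called higher or lower here by size alone, and resistance, exposure to the drug and differences between cultures cannot be told apart. Intervals are exact, at 95%, and cover counting error only.

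Most of the transcriptome differed little. Of 5342 genes with at least 20 CPM in either library, 3907 (73.1%) were within 1.5-fold, and the median log2 ratio of fully resistant over sensitive was 0.10. Fully resistant cells had 292 genes (5.47%) higher by 2-fold or more and 297 (5.56%) lower by that much, so 11% differed in either direction. Differences of 10-fold or more were found for 46 higher and 34 lower genes, and of 50-fold or more for 24 higher and 7 lower genes. The higher genes took 31447 CPM in fully resistant against 9851 CPM in sensitive cells, and the lower genes took 21888 against 58401 CPM. To compare cells at equal depth, each cell was thinned to 9500 UMIs, which left 5843 fully resistant and 4907 sensitive cells. The median higher gene was then detected in 31.0% of fully resistant and 11.9% of sensitive cells, and the median lower gene in 11.6% and 31.6%. A share of 50% was not reached in either library by 214 of the higher and 217 of the lower genes. A difference of 50 percentage points or more was found for 10 higher and 12 lower genes.

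**Figure D1:**
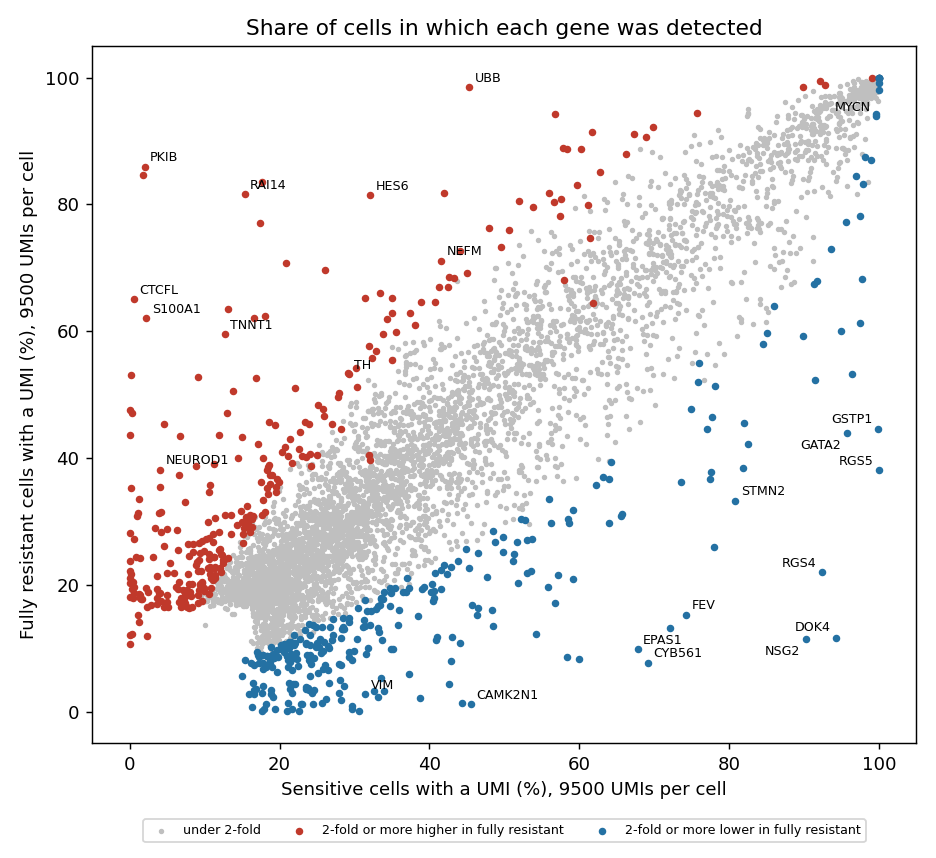
Each point is 1 of the 5342 genes, placed by the percentage of sensitive cells (horizontal axis) and of fully resistant cells (vertical axis) with at least 1 UMI after thinning to 9500 UMIs per cell. Red points were higher and blue points lower in summed CPM, by 2-fold or more. PKIB sits at 2.02% and 85.9% and RGS5 at 100% and 38.1%, while most genes lie near the diagonal.

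A small group of genes went from near absence to most cells. By the rule of at most 10% of sensitive and at least 50% of fully resistant cells, 6 of the 5342 genes (0.112%) were found, among them PKIB, ARHGAP36, CTCFL, S100A1 and MAGEA6. Which genes meet this rule depends on the depth. At 5000 UMIs per cell they were 4, PKIB, ARHGAP36, RAI14 and TP53I11. Per cell, a median of 4 of the 6 genes was detected in fully resistant cells, 0 in sensitive cells and 2 in intermediate resistant cells.

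PKIB (ENSG00000135549) and ARHGAP36 (ENSG00000147256) both encode inhibitors of protein kinase A. PKIB stood at 360 CPM in fully resistant, 77.4 CPM in intermediate resistant and 2.04 CPM in sensitive cells, so the end libraries differed 176-fold (interval 153 to 204). ARHGAP36 stood at 338, 275 and 1.84 CPM in that order, a difference of 184-fold (158 to 214). The intermediate library was thus close to the fully resistant one for ARHGAP36 and farther from it for PKIB. Near-empty barcodes (1 to 50 UMIs), which mostly hold free RNA, carried 2.58 CPM of PKIB and 2.21 CPM of ARHGAP36 in the sensitive library. The levels in sensitive cells were below these. Free RNA can come from the same cells, so this comparison cannot tell low expression there from background. PKIB was detected in 85.9% of fully resistant cells (85.0 to 86.8%) and ARHGAP36 in 84.6% (83.6 to 85.5%).

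CTCFL (ENSG00000124092), the germ cell paralog of the insulator protein CTCF, was found in 65.0% of fully resistant (63.8 to 66.2%), 3.02% of intermediate resistant and 0.571% of sensitive cells (0.379 to 0.824%). Its level was 129 CPM in fully resistant, 3.37 CPM in intermediate resistant and 0.578 CPM in sensitive cells. Near-empty barcodes of the sensitive library carried 1.84 CPM. The 55 sensitive UMIs lay in 54 cells, and 0 of them were in barcodes shared between the libraries. Only 62 of the 5415 sensitive cells had such a barcode, too few for this 0 to be informative. Among cells below the median share of cell cycle UMIs, the log2 ratio of CTCFL was 7.05 in place of 7.80. CTCF itself was at 45.4 CPM in fully resistant and 67.2 CPM in sensitive cells, 1.48-fold lower (1.43 to 1.54), and the tested genes beside it on chromosome 16 had a median log2 ratio of -0.73.

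S100A1, a calcium-binding protein, was at 128, 16.0 and 2.44 CPM in fully resistant, intermediate resistant and sensitive cells, 52.4-fold higher in the first than in the last. MAGEA6, a cancer-testis antigen, was at 82.8, 56.2 and 12.2 CPM in that order. Near copies of MAGEA6 on chromosome X can share its reads, so its own level is uncertain.

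Beyond these, the 15 genes with the largest gain in share of cells included HES6, a HES family factor expressed in differentiating neural precursors, RAI14, MGST1, TP53I11, UBB, TESC, CDC42EP3, NEUROD4 and TNNT1. UBB, a polyubiquitin gene, was detected in 98.5% of fully resistant and 45.3% of sensitive cells at 556 and 116 CPM, and its intermediate level was 440 CPM. MGST1, a microsomal glutathione transferase, was at 236 CPM in fully resistant and 22.0 CPM in sensitive cells, but at 2.74 CPM in the intermediate library. RAI14, an actin-associated ankyrin repeat protein, was at 224, 17.1 and 18.8 CPM in fully resistant, intermediate resistant and sensitive cells. MGST1 and RAI14 were therefore not between the end libraries in the intermediate one. TP53I11, named for its induction by p53, was at 217, 56.4 and 21.3 CPM in the same order.

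Almost every fully resistant cell carried several of these 15 genes. Thinned fully resistant cells had a median of 11 of the 15 detected (central 95% of cells 6 to 14), intermediate resistant cells a median of 4 (2 to 8) and sensitive cells a median of 2 (0 to 4). At least 8 of the 15 were found in 5432 fully resistant cells (93.0%). None of the 4907 sensitive cells reached 8 (0 cells, which allows a share of up to 0.0611%), and their highest count was 6. At the other end, 192 fully resistant cells had 6 or fewer. Since these genes were chosen on the same cells, the separation is a description of how the difference was spread over cells.

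Loss of detection was as marked. RGS5 (ENSG00000143248), which shuts off G protein signals, was detected in 100% of sensitive and 38.1% of fully resistant cells. Its level was 3031 CPM in sensitive, 3041 CPM in intermediate resistant and 148 CPM in fully resistant cells, 20.5-fold lower at the last (20.1 to 20.8). A thinned sensitive cell had a median of 29 RGS5 UMIs, and a fully resistant cell had a median of 0. Still, 3.58% of fully resistant cells had 10 or more RGS5 UMIs and the highest had 41, so low RGS5 was not uniform. RGS4, its neighbour in family and position on chromosome 1, was at 352, 515 and 45.1 CPM in sensitive, intermediate resistant and fully resistant cells.

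DOK4, an adaptor that binds receptor tyrosine kinases such as RET, was at 370 CPM in sensitive and 14.5 CPM in fully resistant cells, and was detected in 94.3% and 11.6% of cells. NSG2, a neuronal endosome protein, was at 331 and 15.7 CPM in that order, and was detected in 90.2% and 11.5% of cells. GSTP1, a cytosolic glutathione transferase, was at 956 and 111 CPM, with a median of 9 UMIs per sensitive cell and 0 per fully resistant cell. FEV, an ETS family transcription factor, was at 172 and 18.5 CPM, and the netrin receptor UNC5B at 152 and 17.4 CPM. For DOK4 the tested neighbours on chromosome 16 had a median log2 ratio of -0.83, whereas for NSG2 it was -0.04 and for GSTP1 0.24.

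By the rule of at least 50% of sensitive and at most 10% of fully resistant cells, 4 of the 5342 genes (0.0749%) passed, namely CYB561, EPAS1, KCNH2 and PRCD. This set depends on the depth too: at 5000 UMIs per cell it held 5 genes, CYB561, FEV, NSG2, UNC5B and DOK4, and EPAS1 also dropped out when cells above 2 times the median UMI count were left out. CYB561, which carries electrons into catecholamine granules, was at 167 CPM in sensitive, 53.3 CPM in intermediate resistant and 9.42 CPM in fully resistant cells. EPAS1, the hypoxia-inducible factor HIF-2α, was at 126, 112 and 11.7 CPM in that order. KCNH2, a voltage-gated potassium channel, was at 98.9, 33.3 and 9.92 CPM, and PRCD, known as a photoreceptor disc protein, at 109, 45.9 and 11.2 CPM. EPAS1 in the intermediate library was close to the sensitive level, while the other 3 genes were lower there. Of the 15 genes with the largest loss in share, a median of 12 was detected per sensitive cell, 9 per intermediate resistant cell and 3 per fully resistant cell. At least 8 of those 15 were found in 98.5% of sensitive and 2.55% of fully resistant cells.

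By amount of RNA rather than by share, the largest gain among genes past 2-fold was in TMSB4X, which encodes the actin-sequestering thymosin beta-4. TMSB4X was at 2968 CPM in fully resistant, 112 CPM in intermediate resistant and 338 CPM in sensitive cells. The neurofilament gene NEFM was at 662 CPM in fully resistant, 57.6 CPM in intermediate resistant and 64.7 CPM in sensitive cells. CRABP1, a retinoic acid-binding protein, was at 488, 23.4 and 104 CPM in that order. None of these 3 genes lay between the end libraries in the intermediate one. The growth cone gene BASP1 was at 808 and 353 CPM in fully resistant and sensitive cells, the histone variant H3F3B at 2456 and 1089 CPM, NGFRAP1 at 1240 and 552 CPM, and the septin SEPT7 at 625 and 271 CPM. Those 4 genes were detected in at least 89.9% of cells on both sides and differed in amount per cell.

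Leaving out ribosomal protein and mitochondrially encoded genes, MYCN, the amplified oncogene of the line, had the largest loss in CPM after RGS5 and GSTP1 among genes past 2-fold. MYCN was at 446 CPM in fully resistant, 413 CPM in intermediate resistant and 1242 CPM in sensitive cells, 2.78-fold lower in fully resistant than in sensitive cells (2.76 to 2.81). It was detected in 93.9% of fully resistant and 99.6% of sensitive cells, at a median of 4 and 10 UMIs per thinned cell. MYCNOS, on the opposite strand of the same locus, was at 117 and 249 CPM, and whether the counting kept the strands apart is not given in the sources used here. Apart from MYCN and MYCNOS, the other 13 of 15 measured genes of the MYC network were within 2-fold, including the MYC targets ODC1 at 582 and 792 CPM and NPM1 at 1213 and 1587 CPM. Over all genes 11% passed 2-fold in either direction, so 2 of 15 in this list is near that share. The list's median log2 ratio was -0.15, beside 0.10 over all genes.

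ALK (ENSG00000171094) had few UMIs in either library. It was at 1.25 CPM in fully resistant, 5.11 CPM in intermediate resistant and 5.44 CPM in sensitive cells, 4.34-fold lower at the first than at the last (3.58 to 5.29), and was detected in 1.06% and 5.12% of fully resistant and sensitive cells. Among 6 measured ALK adaptors and ligands, only DOK4 passed 2-fold, beside 11% over all genes. The adaptors GRB2 and PTPN11 were 1.56-fold and 1.61-fold higher, SHC1 was 1.82-fold lower, and the ligand MDK was at 1678 and 1249 CPM. Of 3 measured genes that report ERK activity, ETV5 was lower, at 5.42 and 20.1 CPM, while ETV1 and CCND1 were 1.21-fold and 1.65-fold higher, and the list's median went from 0.27 to -0.79 without mitochondrially encoded and ribosomal protein genes in the CPM, where 5 genes of the list were measured in place of 3. Genes of other receptor kinases, their coreceptors and ligands differed in both directions. RET, the receptor of glial cell-derived factors, was at 2.03 CPM in fully resistant and 34.4 CPM in sensitive cells, while its coreceptor GFRA1 was at 26.3 and 11.3 CPM and the ephrin EFNA5 at 53.2 and 21.7 CPM. The median of the 5 measured genes of receptor kinases, coreceptors and ligands, of which RET alone is a receptor kinase, was 0.54. It became -0.32 over 11 measured genes when mitochondrially encoded and ribosomal protein genes were left out of the CPM. This list therefore has no stable direction.

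Genes of cAMP signalling differed in both directions. Of 10 measured, 6 were higher by 2-fold or more and 2 lower (5.47% and 5.56% over all genes), with a median log2 ratio of 1.12. Besides PKIB and ARHGAP36, the higher genes were the phosphodiesterases PDE4D (52.9 and 7.69 CPM in fully resistant and sensitive cells) and PDE4B (48.1 and 12 CPM), the regulatory subunit PRKAR1A (83.5 and 36.2 CPM) and the inhibitor PKIG (39.8 and 19.4 CPM). Lower were the anchoring protein AKAP12 (44.2 and 131 CPM) and the regulatory subunit PRKAR2A (32.3 and 73.5 CPM). PRKAR1A lies on chromosome 17, where its tested neighbours had a median log2 ratio of 0.72, and PDE4D and PDE4B had neighbour medians of -0.10 and -0.05. Without mitochondrially encoded and ribosomal protein genes in the CPM, more members were measured and the median was 0.16.

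G protein regulators and receptors were lower more often than higher. Of 13 measured, 5 were at least 2-fold lower and 2 higher, beside 5.56% and 5.47% over all genes, with a median of -0.60. After RGS5 and RGS4, the lower genes were GNAO1 (5.65 CPM in fully resistant and 33.9 CPM in sensitive cells), GNG3 (53 and 168 CPM) and GNG4 (69.3 and 172 CPM), which encode G protein subunits. The higher genes were the alpha-2A adrenoceptor ADRA2A (25.5 and 2.70 CPM) and the dopamine receptor DRD2 (24.3 and 8.72 CPM). For GNAO1 the neighbours on chromosome 16 had a median log2 ratio of -1.0. Among potassium channel genes, KCNK3 (3.36 and 35.8 CPM) and KCNH2 were lower and KCNG1 was within 2-fold. KCTD12, a GABA-B receptor subunit that was on the same list, was at 8.82 and 36.8 CPM. All 3 measured sodium, calcium and ligand-gated channel genes were within 2-fold, while 11% of all genes were past it.

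**Figure D2:**
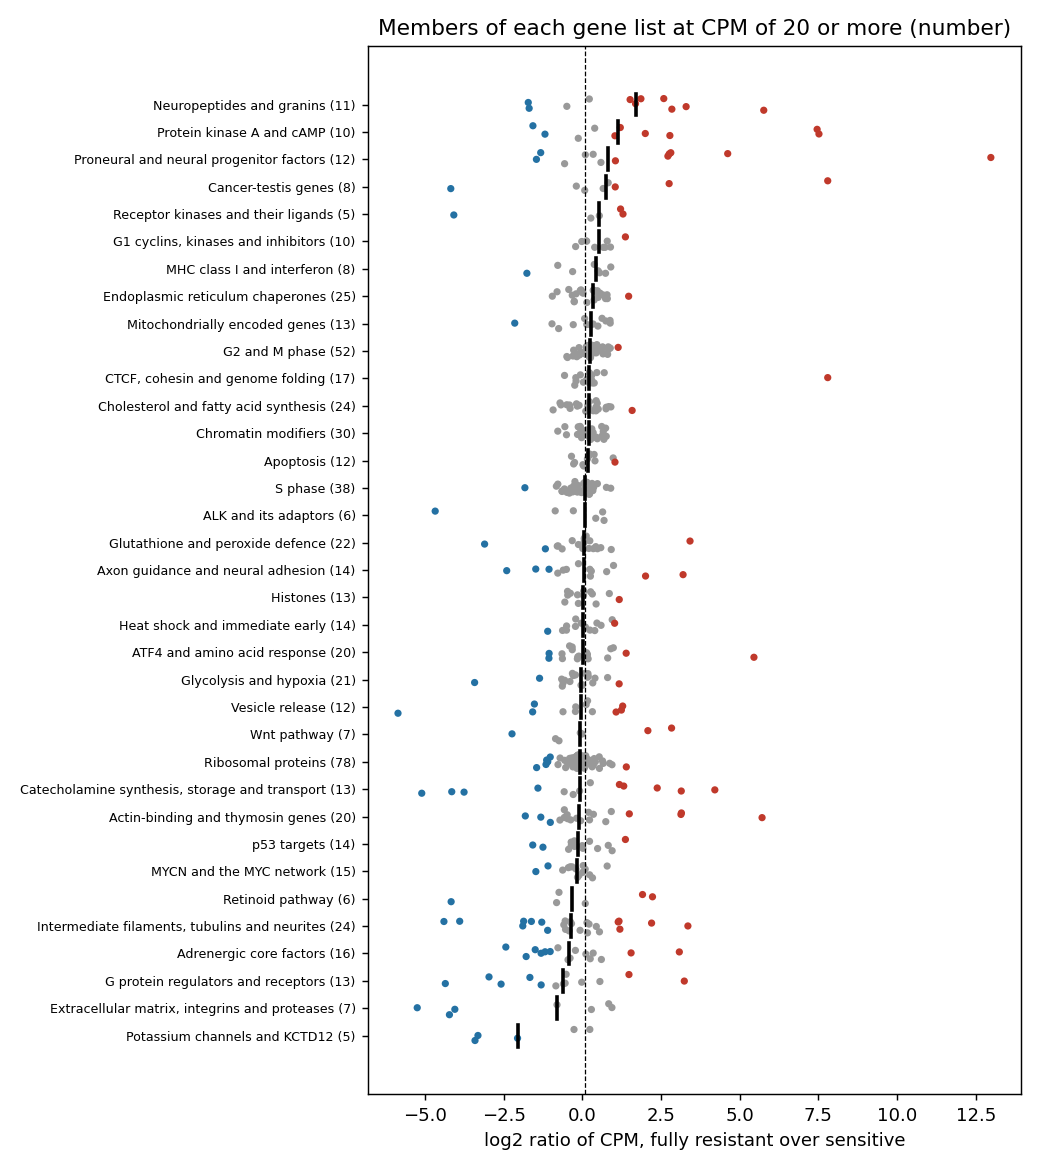
Each point is 1 measured member of a gene list, placed by its log2 ratio of CPM (fully resistant over sensitive, horizontal axis). Red points are at least 2-fold higher, blue points at least 2-fold lower, black ticks mark list medians and the dashed line marks the median of all genes, 0.10. The cAMP and neuropeptide lists have medians of 1.12 and 1.69 and the G protein list -0.60, while S phase, G2 and M phase and chromatin lists stay near the dashed line.

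Proneural and neural progenitor factors were higher more often than lower. Of 12 measured, 6 were higher and 2 lower (all genes, 5.47% and 5.56%), with a median of 0.82 (1.92 without mitochondrially encoded and ribosomal protein genes in the CPM). NEUROD4 had 9040 UMIs in fully resistant cells and 1 UMI in sensitive cells, a ratio of 8100 with a counting interval of 1453 to 319952. It was detected in 47.6% of fully resistant and 2.91% of intermediate resistant cells. NEUROD1 was at 111 CPM in fully resistant, 6.35 CPM in intermediate resistant and 4.50 CPM in sensitive cells, 24.6-fold higher (22.3 to 27.1), and was seen in 38.1% and 4.06% of cells at the ends. Both are basic helix-loop-helix activators of neuronal genes. HES6 was at 313 CPM in fully resistant, 48.8 CPM in intermediate resistant and 44.5 CPM in sensitive cells, SOX9 at 35.1, 15.4 and 5.18 CPM, and SOX2 at 21.6, 9.55 and 3.28 CPM. ID1 and ID2, which block helix-loop-helix factors, differed in opposite directions, ID1 at 243 and 117 CPM and ID2 at 147 and 404 CPM in fully resistant and sensitive cells.

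The NEUROD4 start is shown because its gene was nearly absent on one side. In the RefSeq annotation of GRCh38.p14, the window from 250 bases before to 50 bases after its start is chr12:55019724-55020023 on the plus strand. Capitals mark the E-box CAGCTG, the kind of element that helix-loop-helix factors bind, which begins at position -46 from the start.
NEUROD4: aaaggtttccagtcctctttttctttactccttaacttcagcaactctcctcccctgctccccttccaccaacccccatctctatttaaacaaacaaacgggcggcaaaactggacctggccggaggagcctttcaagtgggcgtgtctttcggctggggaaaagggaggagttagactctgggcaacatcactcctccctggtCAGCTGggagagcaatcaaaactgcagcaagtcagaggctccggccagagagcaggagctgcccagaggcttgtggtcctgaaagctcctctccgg
CAGCTG, which reads the same on both strands, was found in 18.1% of the 375 windows of higher genes, 18.2% of the 384 windows of lower genes and 15.6% of the 6124 windows of all tested genes. Its presence here is a description of the letters only.

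Adrenergic transcription factors were lower more often than higher. Of 16 measured, 6 were at least 2-fold lower and 2 higher (all genes, 5.56% and 5.47%). The median of -0.42 became -0.14 over 15 genes in cells below the median share of cell cycle UMIs. GATA2 was at 85.0 CPM in fully resistant, 306 CPM in intermediate resistant and 459 CPM in sensitive cells, and was detected in 44.0% of cells at the first and 95.7% at the last. HAND1 was at 131, 347 and 451 CPM in the same order, and GATA3 at 111, 435 and 275 CPM. MEIS2 (44.2 and 125 CPM in fully resistant and sensitive cells), TBX2 (46.8 and 106 CPM) and LMO1 (39.5 and 80.3 CPM) were lower as well. In contrast, DACH1 was at 66.1 CPM in fully resistant, 9.16 CPM in intermediate resistant and 7.80 CPM in sensitive cells. The factors of this list therefore did not differ as one group.

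Catecholamine genes split by step. Of 13 measured, 5 were higher and 4 lower (5.47% and 5.56% of all genes), with a median of -0.09 that turned to 0.03 without mitochondrially encoded and ribosomal protein genes in the CPM. Higher members were mainly of synthesis. TH, the rate-limiting enzyme, was at 238 CPM in fully resistant, 292 CPM in intermediate resistant and 45.7 CPM in sensitive cells, DDC at 269 and 119 CPM and DBH at 380 and 153 CPM in fully resistant and sensitive cells. GCH1, which makes the cofactor of TH, was at 22.0 and 2.49 CPM, and its feedback regulator GCHFR at 96.0 and 5.18 CPM. Lower members included genes of storage and uptake. The vesicular transporter SLC18A2 was at 1.17 CPM in fully resistant, 33.3 CPM in intermediate resistant and 40.2 CPM in sensitive cells, 34.4-fold lower (28.8 to 41.5). The noradrenaline transporter SLC6A2 was at 4.68 and 63.4 CPM in fully resistant and sensitive cells. For TH the tested neighbours on chromosome 11 had a median log2 ratio of 0.98, and for SLC6A2, on chromosome 16, -1.0. SLC18A2 and GCHFR had neighbour medians of -0.02 and 0.28.

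Neuropeptide and granin genes had a median log2 ratio of 1.69, with 7 of 11 higher and 2 lower, beside 5.47% and 5.56% over all genes. Of the higher genes, CARTPT, ADCYAP1, CPE, PCSK1N, SCG2 and SCG5 were under 20 CPM in sensitive cells. They were thus measured only through the fully resistant library, where they were high. The summed level of the whole list was lower in fully resistant (1300 CPM) than in sensitive cells (1685 CPM). SST, somatostatin, was at 383 CPM in fully resistant, 682 CPM in intermediate resistant and 53.3 CPM in sensitive cells. CARTPT was at 28.5, 290 and 2.90 CPM in that order, so both peptides were highest in the intermediate library. ADCYAP1, the peptide PACAP that raises cAMP through its receptors, was at 22.3 CPM in fully resistant, 0.00976 CPM in intermediate resistant and 0.410 CPM in sensitive cells. Peptide processing genes were higher too, CPE at 113 and 18.8 CPM and PCSK1N at 37.5 and 10.3 CPM in fully resistant and sensitive cells, as were the granins SCG2 (24.2 and 7.49 CPM) and SCG5 (55.9 and 19.5 CPM). CHGA, the main chromaffin granule protein, was lower, at 214 CPM in fully resistant, 1286 CPM in intermediate resistant and 705 CPM in sensitive cells. The peptide galanin, GAL, was at 209 and 676 CPM in fully resistant and sensitive cells.

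Promoters of 4 of these secretory genes are shown because each holds the same full cAMP response element, TGACGTCA, while their RNA differed in opposite directions. SST (chr3:187670345-187670644, minus strand) and CARTPT (chr5:71719025-71719324, plus strand) were higher in fully resistant cells. SLC18A2 (chr10:117240864-117241163, plus strand) and CHGA (chr14:92922900-92923199, plus strand) were lower. The windows are RefSeq starts on GRCh38.p14, from 250 bases before to 50 after the start, written 5′ to 3′ with the element in capitals. In CARTPT the capitals also mark an E-box, CATCTG, which is CAGATG read on the other strand, a motif found in 10.9% of the windows of higher, 11.7% of those of lower and 9.11% of those of all tested genes.
SST: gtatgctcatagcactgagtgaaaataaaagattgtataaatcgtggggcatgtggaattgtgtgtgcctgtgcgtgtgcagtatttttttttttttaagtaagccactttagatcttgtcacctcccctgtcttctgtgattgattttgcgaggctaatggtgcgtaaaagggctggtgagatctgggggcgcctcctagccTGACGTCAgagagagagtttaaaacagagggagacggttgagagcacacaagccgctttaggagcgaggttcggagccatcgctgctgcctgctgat
CARTPT: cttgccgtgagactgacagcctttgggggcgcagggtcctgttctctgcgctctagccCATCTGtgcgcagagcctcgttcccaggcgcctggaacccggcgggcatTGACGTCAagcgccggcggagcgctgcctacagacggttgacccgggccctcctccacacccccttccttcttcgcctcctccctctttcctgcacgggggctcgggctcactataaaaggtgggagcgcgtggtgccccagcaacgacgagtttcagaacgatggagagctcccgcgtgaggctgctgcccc
SLC18A2: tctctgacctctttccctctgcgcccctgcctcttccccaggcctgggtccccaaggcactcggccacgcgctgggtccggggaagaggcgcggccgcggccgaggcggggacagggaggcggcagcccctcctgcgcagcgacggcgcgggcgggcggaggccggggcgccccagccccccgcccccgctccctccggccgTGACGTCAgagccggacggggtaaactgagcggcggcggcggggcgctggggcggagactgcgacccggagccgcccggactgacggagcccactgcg
CHGA: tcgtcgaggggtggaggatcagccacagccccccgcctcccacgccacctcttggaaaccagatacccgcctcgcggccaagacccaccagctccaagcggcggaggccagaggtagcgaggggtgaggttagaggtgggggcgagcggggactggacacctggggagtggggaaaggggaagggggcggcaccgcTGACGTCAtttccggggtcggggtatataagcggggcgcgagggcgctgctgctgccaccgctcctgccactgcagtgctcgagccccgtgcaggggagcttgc
The element begins at position -47 in SST, -143 in CARTPT, -48 in SLC18A2 and -54 in CHGA. It reads the same on both strands and was found in 3.73% of the windows of higher genes, 2.34% of those of lower genes, 3.31% of those of all tested genes and 1.85% of all 35116 windows in the table. Windows with 5 or fewer CG pairs made up 18.7% for higher genes, 16.1% for lower genes and 7.77% for all tested genes. Promoter windows were matched for 223 of 291 higher and 217 of 296 lower gene symbols.

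Cytoskeleton and neurite genes were lower about as often as higher, with 7 lower and 5 higher of 24 measured (5.56% and 5.47% of all genes). The intermediate filament gene VIM was at 4.20 CPM in fully resistant, 3.81 CPM in intermediate resistant and 62.6 CPM in sensitive cells, 14.9-fold lower (13.5 to 16.5), and its neighbours on chromosome 10 had a median log2 ratio of -1.01. Neurofilament genes differed in opposite directions, NEFM higher as above and NEFH lower, at 66.1 and 245 CPM in fully resistant and sensitive cells. STMN2, a neuronal tubulin regulator, was at 76.9 and 280 CPM, PRPH at 56.9 and 175 CPM and GAP43 at 89.1 and 191 CPM. TAGLN3 was higher, at 55.2 and 12 CPM. Outside the cell, COLEC11 (1.64 and 62.3 CPM), MMP2 (2.26 and 42.3 CPM) and COL4A2 (1.39 and 23.1 CPM) were lower. Of 7 measured matrix genes, these 3 were lower and 0 higher (5.56% and 5.47% of all genes), and 4 were within 2-fold. CAMK2N1, which inhibits the calcium-activated kinase CaMKII, was at 1.16 and 67.3 CPM, 58.0-fold lower (48.6 to 70.0). Of 14 measured axon guidance and neural adhesion genes, 2 were higher and 3 lower (5.47% and 5.56% of all genes), with a median log2 ratio of 0.06. The higher ones were SLIT2 (32.2 and 3.50 CPM) and its receptor ROBO2 (23.1 and 5.75 CPM). The lower ones included CNTN1 (5.23 and 27.7 CPM).

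Secreted Wnt antagonists differed in opposite directions. DKK1 was at 126 CPM in fully resistant, 4.42 CPM in intermediate resistant and 17.7 CPM in sensitive cells, and SFRP1 at 16.8, 21.2 and 79.2 CPM. In the retinoid list, CRABP1 and CRABP2 (21.2 and 5.63 CPM in fully resistant and sensitive cells) were higher, and the retinol transporter STRA6 (2.08 and 37.5 CPM) was lower. In glutathione and peroxide defence, 3 of 22 measured genes passed 2-fold, near the 11% over all genes. MGST1 was higher and GSTP1 and GPX1 (194 and 439 CPM) were lower, and the neighbours of GPX1 on chromosome 3 had a median log2 ratio of -0.85. CEBPD, a stress-responsive transcription factor, was at 52.5 CPM in fully resistant, 4.71 CPM in intermediate resistant and 1.20 CPM in sensitive cells, 43.8-fold higher (36.4 to 53.2). HSP90B1, a chaperone of the endoplasmic reticulum, was at 373 and 135 CPM. It was the only one of 25 measured chaperones of that compartment past 2-fold (all genes, 11%). B2M, which pairs with every MHC class I heavy chain, was at 82.9 CPM in fully resistant and 281 CPM in sensitive cells.

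Cell cycle genes differed little. Over all genes, 11% differed by 2-fold or more in either direction. Of 38 measured S phase genes, CDT1 alone passed 2-fold, at 19.1 CPM in fully resistant and 67.9 CPM in sensitive cells. Of 52 measured G2 and M phase genes, UBE2C alone did, at 446 and 203 CPM. UBE2C lies on chromosome 20, where its neighbours had a median log2 ratio of 0.75, and its log2 ratio of 1.14 became -0.22 among cells below the median share of cell cycle UMIs. The median of the G2 and M phase list was 0.26 over all cells and -0.50 in those cells. Those cells were picked by their UMIs from the same S, G2 and M phase lists, UBE2C included. The setting is therefore no independent check on these genes. S phase genes took 0.310% of UMIs in fully resistant and 0.323% in sensitive cells, and G2 and M phase genes 0.670% and 0.579%. The cell cycle inhibitor CDKN1A was at 36.5 and 14.1 CPM. Of 30 measured chromatin modifier genes, 0 passed 2-fold in either direction. Of 78 measured ribosomal protein genes, 6 were lower and 1, RPL22L1, was higher, beside 5.56% and 5.47% over all genes. RPL22L1 was at 340 and 129 CPM, and its paralog RPL22 was lower, at 1207 and 2450 CPM.

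Among endothelial markers, CLDN5 was at 36.1 CPM in fully resistant and 0.368 CPM in sensitive cells, out of summed levels of 36.9 and 0.694 CPM over 4 markers. CDH5, another marker of that cell type, had 0 and 2 UMIs, so CLDN5 was detected while CDH5 was at or near 0.

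Single fully resistant cells varied more than sensitive cells in a subset of genes. The ratio of variance to mean is 1 for counting noise alone and can grow with the mean, so it was compared over the 1679 genes with a mean of at least 0.5 UMI per thinned cell in both libraries and means within 1.5-fold, a filter chosen after seeing the data. Over these genes the median ratio was 1.11 in fully resistant and 1.08 in sensitive cells, and a ratio of 3 or more was found for 63 genes in fully resistant and 24 in sensitive cells. The genes named next differed in mean as well, so their ratios are given as values only. SST had a ratio of 41.2 in fully resistant and 1.95 in sensitive cells, TMSB4X 26.2 and 1.73, NEFM 22.3 and 1.35, and RGS5 8.46 and 3.57. CTCFL, at 1.32, and PKIB, at 2.55, varied less. SST was detected in 40.5% of fully resistant cells, and its highest cell had 246 UMIs. TMSB4X had a median of 19 UMIs per fully resistant cell (percentiles 10 and 90 at 5 and 64) against 3 per sensitive cell (1 and 6). For MYCN the order was the other way, with a ratio of 2.82 in fully resistant and 5.03 in sensitive cells.

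**Figure D3:**
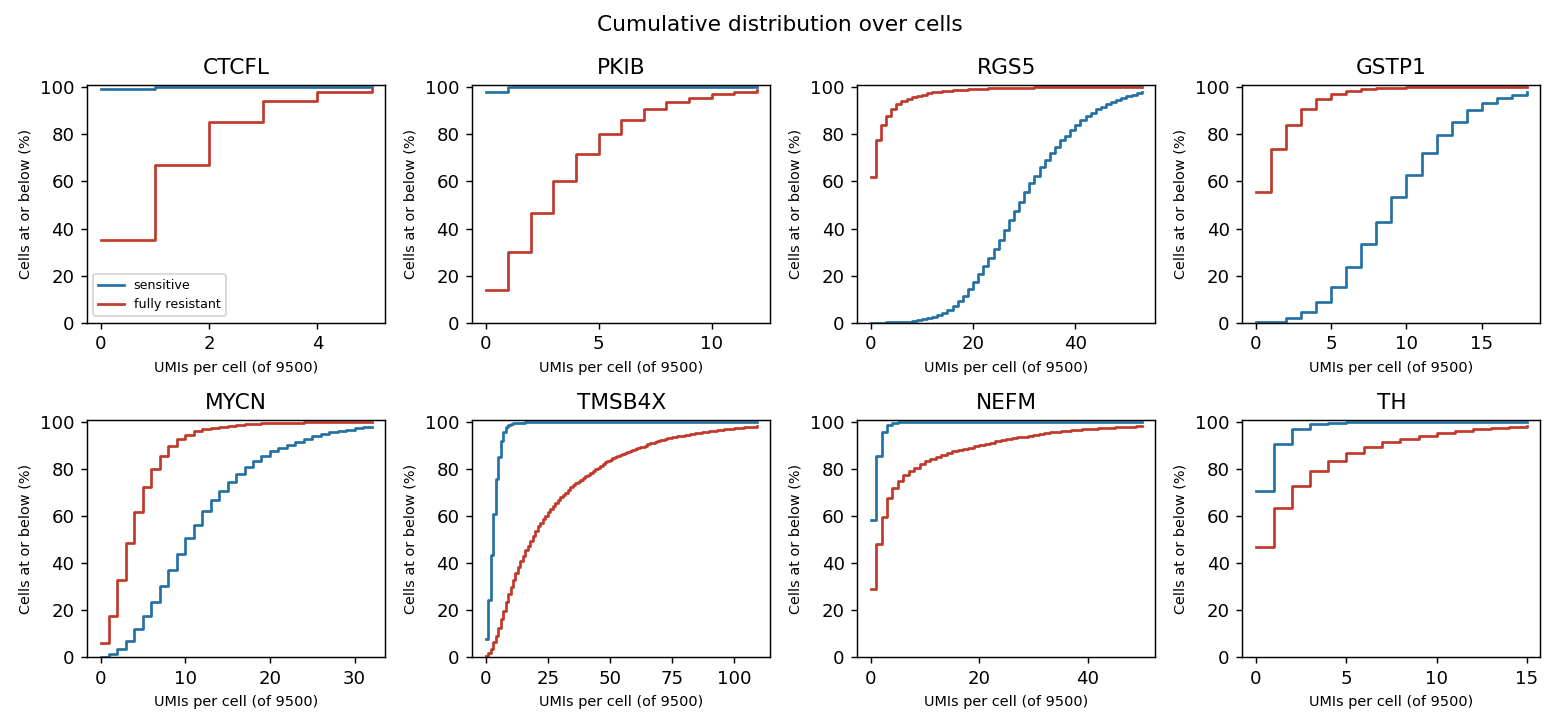
Each panel gives, for 1 gene, the percentage of cells (vertical axis) with at most the number of UMIs on the horizontal axis, after thinning to 9500 UMIs per cell. Red is fully resistant (5843 cells) and blue is sensitive (4907 cells). A curve to the right means more RNA per cell. RGS5 has a median of 29 UMIs in sensitive and 0 in fully resistant cells, and TMSB4X a median of 3 and 19.

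Within the fully resistant library, the variable genes fell along opposite patterns. These genes were chosen by a high ratio of variance to mean in fully resistant cells, with no such limit for sensitive cells. Over the 5843 thinned cells, which share 1 library and 1 depth, Spearman's rho was 0.66 between IGF2 and TH, 0.68 between IGF2 and DLK1 and 0.54 between CRABP1 and TH. In sensitive cells the same pairs had rho of 0.22, 0.45 and -0.13. A second set held NEUROD1, HES6, NEFM and TMSB4X, with rho of 0.47 between NEFM and NEUROD1, 0.40 between HES6 and NEUROD1 and 0.49 between TMSB4X and NEFM. The last pair had rho of 0.03 in sensitive cells. Means per thinned sensitive cell were 0.62 UMIs for NEFM, 0.41 for HES6 and 0.04 for NEUROD1. Low counts pull rho towards 0, so weak co-variation of these genes in sensitive cells cannot be told from low counts. Across the sets rho was -0.27 between NEUROD1 and TH, -0.35 between CRABP1 and NEUROD1 and -0.29 between NEFM and TH, whereas TMSB4X had rho of -0.02 with TH, -0.03 with IGF2 and 0.02 with DLK1. RGS5 and CHGA had rho of 0.36 in fully resistant and 0.35 in sensitive cells.

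Counts of cells, for pairs chosen after their values were seen, show the size of this. Among 1173 fully resistant cells with 2 or more NEUROD1 UMIs, 12.02% (10.2 to 14.0%) had 2 or more TH UMIs, against 43.7% (42.1 to 45.4%) of the 3614 cells with no NEUROD1 UMI. NEFM was at 2 or more UMIs in 86.2% and 39.8% of the same cells, HES6 in 87.1% and 49.97%, and NEUROD4 in 34.2% and 16.7%. TH-positive cells had the other pattern. Of 2127 cells with 2 or more TH UMIs, 89.1% had 2 or more CRABP1 UMIs, against 43.3% of the 2731 with no TH UMI. CTCFL was at 2 or more UMIs in 41.5% of the NEUROD1-positive cells, against 29.9% of those with no NEUROD1 UMI. The same CTCFL level was found in 24.9% of the TH-positive cells, against 38.2% of those with no TH UMI. Among 1314 fully resistant cells that kept 2 or more RGS5 UMIs, 65.1% had 2 or more CHGA UMIs, against 28.1% of the 3617 without RGS5.

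**Figure D4:**
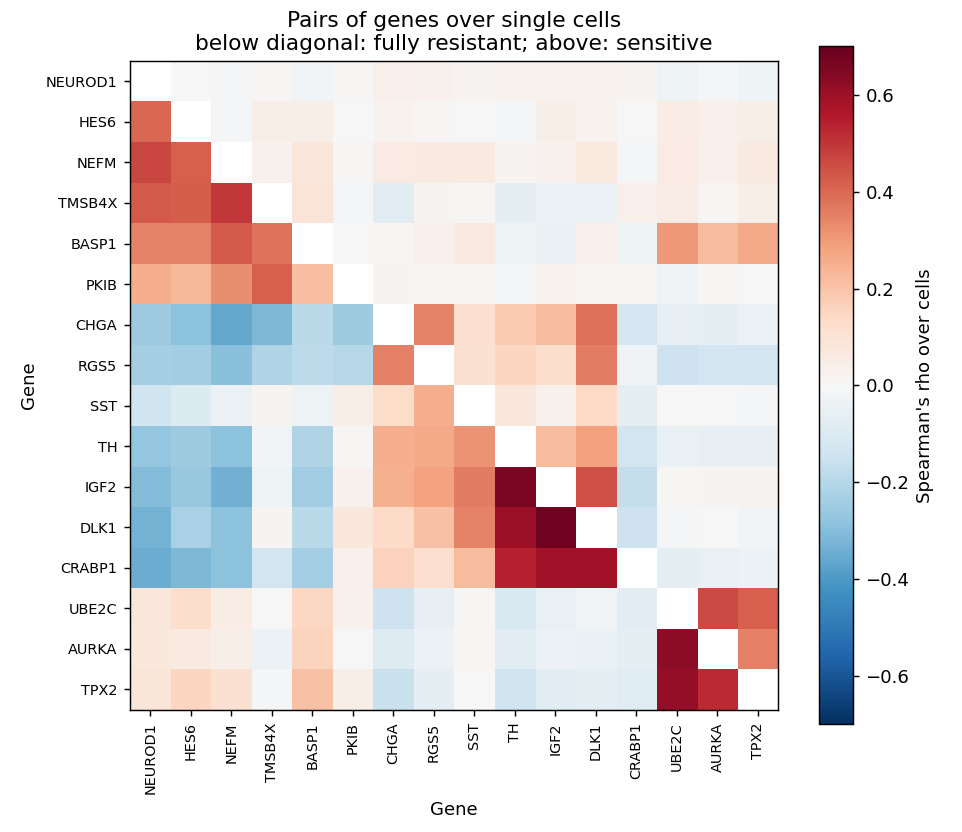
The color gives Spearman's rho between UMI counts of 2 genes over thinned cells, below the diagonal for 5843 fully resistant and above it for 4907 sensitive cells. Red blocks below the diagonal, one from NEUROD1 to PKIB and one from TH to CRABP1, are joined by blue squares such as NEUROD1 with TH at -0.27. Most of the same positions above the diagonal are paler, for example 0.03 for TMSB4X with NEFM. The genes were chosen by their variation in fully resistant cells, and several had few UMIs in sensitive cells.

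The differing genes were unevenly spread over the chromosomes. By chromosome of the GENCODE 29 annotation, higher genes made up 20.8% of 53 tested genes on chromosome 18, 12.9% of 170 on chromosome 20 and 11.7% of 349 on chromosome 12, beside 5.47% over all genes. Lower genes made up 18.1% of 238 tested genes on chromosome 16, 15.8% of 146 on chromosome 22 and 14.0% of 193 on chromosome 10, beside 5.56%. Over all tested genes of a chromosome, the median log2 ratio was 0.56 on chromosome 20, 0.52 on chromosome 18 and 0.47 on chromosome 12, and was -0.48 on chromosome 22 and -0.34 on chromosome 16. For each gene, the median log2 ratio of the 10 nearest tested genes on each side was also taken. It was -0.4 or less for 121 of 295 lower genes (41.0%) and 468 of all 5296 genes with a position (8.84%). It was 0.4 or more for 107 of 290 higher genes (36.9%) and 552 of all genes (10.4%). DNA copy number was not measured, and its part in these values was not tested. With the neighbour median subtracted, 190 genes were higher and 231 lower by 2-fold or more, of which 177 and 188 were among the genes called before.

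**Figure D5:**
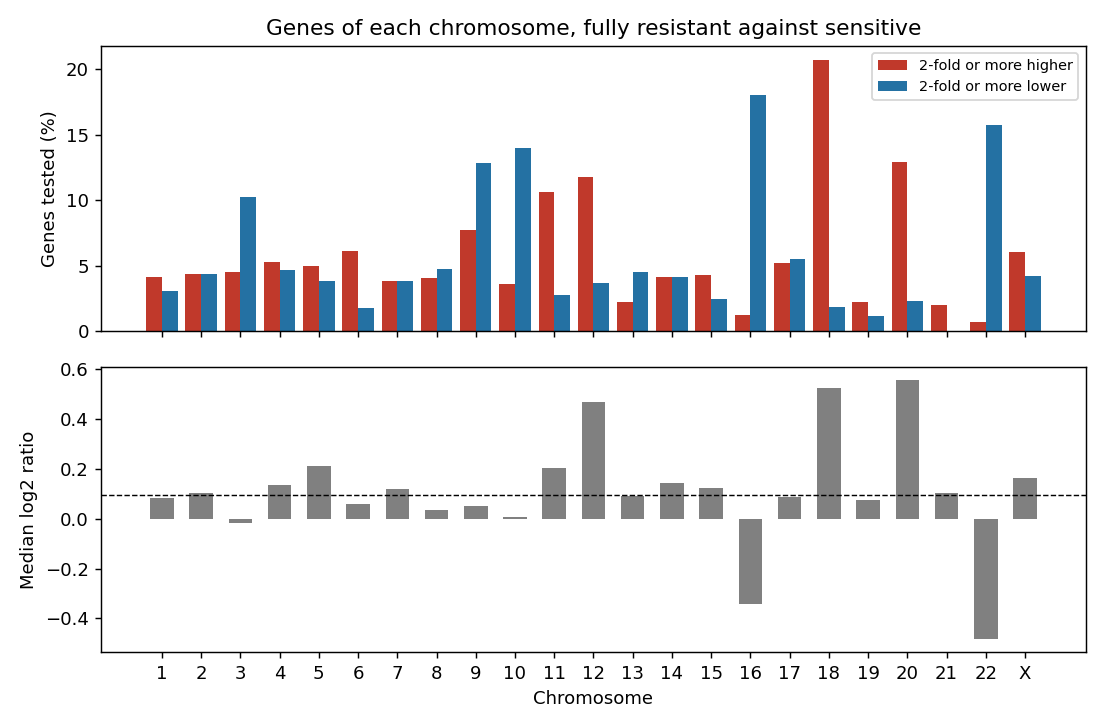
Upper panel: percentage of the tested genes of each chromosome that were at least 2-fold higher (red) or lower (blue) in fully resistant cells. Lower panel: median log2 ratio over the chromosome's tested genes, with the median of all genes, 0.10, dashed. Chromosomes 12, 18 and 20 have medians of 0.47, 0.52 and 0.56, and chromosomes 16 and 22 of -0.34 and -0.48.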

How the data were processed

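The deposited tables hold UMI counts per gene and barcode, without normalization or a barcode filter, per the file headers and values. Per the submitters' processing notes, bcl2fastq, Cell Ranger and the hg19 build were used, with no versions. Groups were taken from the response in the labels. Here the UMIs of all cells of a library were summed per gene and scaled to CPM (per 1000000 UMIs). A gene at 0 UMIs was set to a floor of 3 UMIs. Ratios have conditional Poisson and shares Clopper-Pearson 95% intervals. Each cell was thinned without replacement to 9500 UMIs, which left out 488 fully resistant and 508 sensitive cells. The mitochondrial limit removed 2 and 0 barcodes. No doublet caller was run and doublets were kept. Cells above 2 times the median UMI count (128 and 311) were left out as an alternative. The steps were tested on simulated counts.

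There were 41 gene lists and 7 marker lists. A measured list member had at least 20 CPM in either library. The cells, members and lists were chosen with earlier results of these data known. Named genes, at a ratio of at least 2, were the 15 with the largest gain and loss each in share of cells. The 10 with the largest gain and loss each in CPM, at the same ratio, were named too. Up to 6 measured members per list, by absolute log2 ratio, were named without a limit on the ratio. ALK, MYCN, CTCFL, CTCF and VIM were always named. Other genes, such as marker genes and list members beyond the 6 per list, were chosen after their values were seen. Some entries under these rules are not reported here. Gene order came from GENCODE 29 by Ensembl identifier and gave no coordinates. Promoters came from RefSeq (GRCh38.p14), by symbol.

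Alternatives were other UMI minimums, cells of low cell cycle share, shared barcodes left out, CPM without mitochondrially encoded and ribosomal protein genes, TMM scaling (edgeR 4.0.16, R 4.3.3), median-of-ratios scaling, the mean of CPM per cell, other CPM and ratio limits, and other thinning depths. Other tools were Python 3.11.15, numpy 2.4.6, scipy 1.17.1, pandas 2.3.3 and matplotlib 3.10.9. All per-sample columns were mapped (0 left unused). The intermediate resistant library entered no count of higher or lower genes, and its values are set beside those of the end libraries.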

Additional observations from a re-analysis of the deposited data

How the results depend on the processing

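The 292 higher genes became 461 at a CPM minimum of 10, 130 at a minimum of 50, 783 at a ratio of 1.5 and 119 at a ratio of 3. The 297 lower genes became 497, 124, 652 and 119 under the same settings, and 489 with CPM computed without mitochondrially encoded and ribosomal protein genes, where 7079 genes were tested. With the neighbour median subtracted, an alternative chosen after seeing the data, there were 190 higher and 231 lower genes. TMM scaling gave 240 higher and 360 lower genes, and median-of-ratios scaling 253 and 338, with shifts of the median log2 ratio of -0.09 and -0.06. The genes found in most sensitive and few fully resistant cells numbered 4, against 1 among cells of low cell cycle share and 0 with at most 5% allowed in the lower library. The log2 ratio of UBE2C reversed to -0.22 in cells of low cell cycle share, which were picked by UMIs of genes that include UBE2C. Without mitochondrially encoded and ribosomal protein genes, list medians reversed for receptor kinases and their ligands (-0.32) and the Notch pathway (-0.00979). Medians of smaller size changed sign there for ERK output (-0.79), catecholamine genes (0.03), axon guidance (-0.17) and other lists. More members were then measured. Of 242 named genes, 7 changed sign under at least 1 alternative. UBE2C, AURKA and CDC25C did so in cells of low cell cycle share, which were picked by lists that hold these genes. The others were DLL3, RDH11, ABCC5 and AMOTL1, which lay within 0.10 of 0. No paired analysis was possible because each group is 1 library. No replicate could be left out. With 1 library per side, variation between cultures was not measured. Genes under about 20 CPM are seen in few cells at this depth, and a share of 0 in the thinned cells allows up to 0.0513% of fully resistant and 0.0611% of sensitive cells.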

Other observations

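Several genes outside the lists, chosen after their values were seen, were found in 1 of the 2 libraries almost alone. MYL1, a skeletal muscle myosin light chain, was at 43.2 CPM in fully resistant cells with 0 UMIs in sensitive cells, at least 1369-fold higher against the 3-UMI floor over the library. CXCL14, a chemokine, and CD300LG, a receptor-like protein, also had 0 sensitive UMIs and were at 26.7 and 24.1 CPM, at least 846-fold and 763-fold higher. CXCL14 was detected in 10.6% and MYL1 in 28.2% of thinned fully resistant cells, and a share of 0 in sensitive cells allows up to 0.0611%. RPRM, which encodes the p53-responsive protein reprimo, had 3460 UMIs in fully resistant cells and 1 in sensitive cells, a ratio of 3100 with a counting interval of 556 to 122481. In the other direction, SH3BGRL was at 0.0377 CPM in fully resistant and 37.1 CPM in sensitive cells, 984-fold lower (384 to 3615). RPH3A, a synaptic vesicle protein, was at 0.0377 and 30.2 CPM, 802-fold lower (313 to 2944). Each of these last 2 genes had 4 UMIs in all fully resistant cells.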
